A study of Mus musculus with 8 samples.

Results

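Solute carriers are membrane proteins that move amino acids, sugars, vitamins, nucleosides, metals and ions across the plasma membrane or the membranes of organelles. Their transcripts were followed here in 4 leukaemias of mice with N-Myc overexpression and in the 4 normal bone marrow populations of the same sorting gates. The genes were those of the deposited expression table whose symbol is Slc followed by a digit, with a level of at least 1 FPKM (fragments scaled to transcript length and to library size) in at least 1 of 8 libraries. Of 16434 rows in the table, 240 had such a symbol and 187 of these reached the minimum, in 46 numbered families. The genes were thus chosen by their highest FPKM in any library, whichever group it came from, and not by the contrast between leukaemia and normal cells. The members nearest the minimum were Slc10a1, Slc7a3 and Slc26a3, with highest levels of 1.04, 1.07 and 1.11 FPKM. Just below it lay Slc18a1, Slc13a4 and Slc47a2, with 0.989, 0.934 and 0.808 FPKM. The symbol also took 4 genes that are not carriers, namely the scaffold genes Slc9a3r1 and Slc9a3r2 and the genes Slc7a6os and Slc36a3os.

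All 8 libraries came from bone marrow of C57BL/6 mice, with an age of 8 to 10 weeks in the labels, and each group had 1 library. The leukaemia cells carried GFP and were sorted as B220+GFP+ for B-ALL (B-cell acute lymphoblastic leukaemia), CD3+GFP+ for T-ALL (T-cell acute lymphoblastic leukaemia), Mac1+Gr1+GFP+ for AML (acute myeloid leukaemia) and B220-CD3-Mac1-Gr1-GFP+ for AUL (acute undifferentiated leukaemia). The normal marrow gave B cells by B220+, T cells by CD3+, myeloid cells by Mac1+Gr1+ and lineage-negative cells by B220-CD3-Mac1-Gr1-, all without GFP in their labels. How N-Myc was introduced, and how many mice gave each library, are not given in the sources used here. Each leukaemia was set against the normal library of its gate, and a comparison within 1 gate therefore carries no p-value and no check between replicates.

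A dividing cell takes up essential amino acids, folate and nucleosides that it cannot make in sufficient amounts, and carriers of the plasma membrane set this supply. The light chain encoded by Slc7a5 pairs with the heavy chain of Slc3a2 to import large neutral amino acids, in exchange for glutamine that Slc1a5 can bring in. Family 25 lies in the inner mitochondrial membrane, family 35 mostly in the Golgi and endoplasmic reticulum, and several carriers of families 15, 36, 38 and 46 in lysosomes.

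The libraries held 33818615 to 52280282 fragments, as recovered from the steps of the FPKM values. B-cell markers, summed over 7 genes, had 2041, 6.43, 4.56 and 3.92 in the B-ALL, T-ALL, AML and AUL libraries and 4562, 685, 42.4 and 799.6 in their normal B, T, myeloid and lineage-negative counterparts (FPKM). T-cell markers, also 7 genes, had 325, 2439.7, 49.1 and 1839 in the B-ALL, T-ALL, AML and AUL libraries and 184, 2653, 17.3 and 76.2 in their normal B, T, myeloid and lineage-negative counterparts. The AUL library, sorted without CD3+ cells, thus stood with T-ALL and normal T cells in its T-cell markers. Over 8 neutrophil markers the sums were 11945, 1704, 10544 and 2278 in the B-ALL, T-ALL, AML and AUL libraries and 2893, 1082, 184693 and 21009.6 in their normal B, T, myeloid and lineage-negative counterparts. The normal lineage-negative library had the highest sum of the 6 stem and progenitor markers (285 FPKM) and of the 5 basophil and mast cell markers (2567 FPKM) and also held the B-cell and neutrophil markers above. Markers of several cell types were thus present in that library, and their part in the ratios to it was not tested. In bulk RNA, fewer cells of a type and less RNA per cell cannot be told apart.

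Solute carrier genes differed between leukaemia and normal cells at shares near those of all listed genes, with the widest gap of these shares among the lower genes of AUL. In B-ALL, 26 of 145 members (17.9%) were at least 2-fold higher, against 18.2% of all genes, and 28 (19.3%) were at least 2-fold lower, against 21.9%. T-ALL had 29 of 152 members (19.1%) in each direction, against 22.1% of all genes higher and 24% lower. In AML 57 of 144 members (39.6%) were higher, against 43.3%, and 44 (30.6%) were lower, against 26.7%. AUL had 23 of 167 members (13.8%) higher, against 13.6%, and 64 (38.3%) lower, against 29.5%. These calls needed a log2 ratio of (FPKM + 1) of at least 1 in size and a level of at least 1 FPKM in the higher library. Every gene entered the table by a rule of the authors that is not given in the sources used here, and the table's name refers to differential genes, so these shares hold for listed genes only.

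The median log2 ratio of the members was -0.09, 0.10, 0.02 and -0.62 in the B-ALL, T-ALL, AML and AUL libraries. Over all listed genes with the same minimum it was -0.02, 0.03, 0.56 and -0.18. Dividing each library by its median ratio to the other libraries moved the median of all genes to -0.13, -0.12, -0.14 and -0.01, and a common FPKM sum moved it to -0.07, 0.05, 0.72 and -0.25. The AML comparison depended most on this choice. With the deposited values 56.4% of its called members were higher, and with median-ratio scaling 37.7% were (40 higher and 66 lower), so that the balance turned. In AUL the 64 lower members became 42 when the library was set against the median of the 4 normal libraries instead of the lineage-negative library. Ratios near 0 have no settled sign, since they are smaller than these shifts. A direction in 4 of 4 pairs refers to the deposited values and can include such a ratio. By the change of normal library the 57 higher members of AML became 34. The calls of all genes shifted too, from 61.8% higher to 43.2% in AML and from 31.5% higher to 43.1% in AUL.

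**Figure D1:**
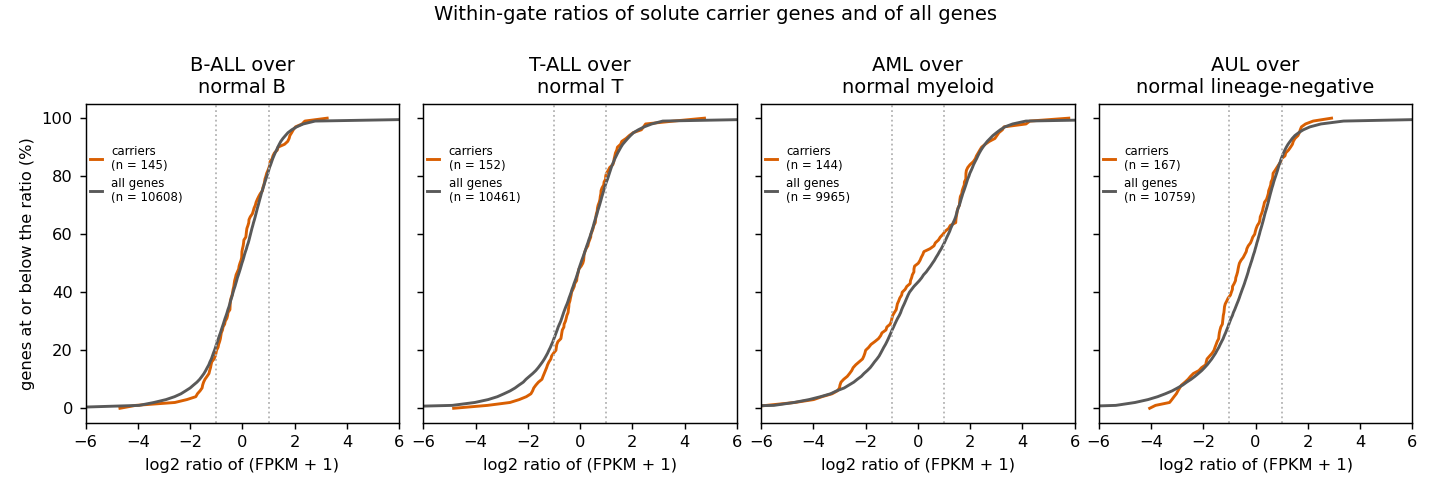
Cumulative distribution of the within-gate log2 ratio of (FPKM + 1), leukaemia over normal, for solute carrier genes and for all listed genes with at least 1 FPKM in the higher library. The horizontal axis is the log2 ratio, the vertical axis the percentage of genes at or below it, and dotted lines mark the 2-fold limits. At the median the carrier curve lies left of the all-gene curve in AML (0.02 and 0.56) and in AUL (-0.62 and -0.18).

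Summed over the members, carrier transcripts made up 0.890%, 0.913%, 0.861% and 0.714% of the listed FPKM in the B-ALL, T-ALL, AML and AUL libraries, and 0.746%, 0.633%, 0.683% and 0.738% in their normal B, T, myeloid and lineage-negative counterparts. A few genes carried much of this. The glutamine carrier gene Slc1a5 and the mitochondrial ADP/ATP carrier gene Slc25a5 together gave 31.3%, 29.01%, 27.1% and 32.2% of the members' FPKM in the B-ALL, T-ALL, AML and AUL libraries, against 24.1%, 19.98%, 6.10% and 23.2% in their normal B, T, myeloid and lineage-negative counterparts. Levels of at least 1 FPKM were reached by 129, 129, 115 and 131 members in the leukaemias in that order and by 138, 139, 126 and 156 in the normal libraries.

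Across the 4 gates, 6 carrier genes passed the test and the same direction held in 4 of 4 pairs for each. That trait alone was common. By any amount, 23.7% of all genes with at least 1 FPKM somewhere were higher in 4 of 4 pairs and 23.6% lower. Of the 187 members, 31 (16.6%) were higher in 4 of 4 pairs and 50 (26.7%) lower. Slc7a5, Slc19a1, Slc7a1 and Slc29a1 rose in the leukaemias, and Slc15a2 and Slc46a3 fell. The first 4 bring large neutral amino acids, reduced folates, cationic amino acids and nucleosides into the cell, and the other 2 encode a peptide carrier and a lysosomal carrier. The test was limma on log2(FPKM + 1) over all 11071 genes that reached 1 FPKM in 2 or more libraries, blocked by gate, with Benjamini-Hochberg adjustment. Of 162 members in that fit, 4 passed upwards and 2 downwards, against 1.26% and 2.42% of all genes. An unadjusted p under 0.05 was reached by 22 members upwards and 27 downwards, and by 1944 and 1976 of the 11071 genes. With 4 pairs each gene has 3 residual degrees of freedom, and limma also borrows from the spread of other genes. Without the B220, CD3, Mac1Gr1 or lineage-negative pair, 0 members passed upwards in each case, and 1, 0, 0 and 0 members passed downwards. Of all genes, 11, 2, 0 and 2 passed upwards and 162, 1, 0 and 1 downwards in the same order. An unadjusted p under 0.05 was then reached by 11 to 18 members upwards and 14 to 23 downwards. The ranges over all genes fitted were 1145 to 1854 upwards and 1456 to 1920 downwards.

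Slc7a5 (ENSMUSG00000040010, mm10 chromosome 8, 121881150 to 121907694), the light chain of the large neutral amino acid carrier, had 192, 196, 167 and 176 FPKM in the B-ALL, T-ALL, AML and AUL libraries, against 35.6, 37.5, 7.69 and 61.4 in their normal B, T, myeloid and lineage-negative counterparts. The leukaemias lay close together and every one of them was above every normal library. The highest leukaemia was 1.18 times the lowest, whereas the normal libraries spanned 7.99-fold, or 1.73-fold without the myeloid library. The mean log2 difference was 2.63 ± 0.47 (SE), adjusted p = 0.042, with limma.

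Slc19a1 (ENSMUSG00000001436, mm10 chromosome 10, 77032241 to 77061002), the reduced folate carrier, had 113, 98.9, 143 and 77.9 FPKM in the B-ALL, T-ALL, AML and AUL libraries, against 11.1, 18.6, 1.63 and 28.7 in their normal B, T, myeloid and lineage-negative counterparts. It had the highest mean log2 difference of the members, 3.19 ± 0.67 (SE), adjusted p = 0.049, with limma. The difference was widest in AML, 87.5-fold higher (95% counting interval 72.3 to 107), where the normal myeloid library had the lowest level of all. In AUL it was 2.71-fold higher (95% counting interval 2.55 to 2.88).

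Slc7a1 (ENSMUSG00000041313, mm10 chromosome 5, 148327410 to 148399904), the carrier of arginine, lysine and ornithine, had 104, 105, 80.8 and 123 FPKM in the B-ALL, T-ALL, AML and AUL libraries, against 26.7, 39.6, 7.82 and 37.1 in their normal B, T, myeloid and lineage-negative counterparts. The lowest leukaemia, AML, was 2.04 times the highest normal library. Its mean log2 difference was 2.06 ± 0.40 (SE), adjusted p = 0.043, with limma.

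Slc29a1 (ENSMUSG00000023942, mm10 chromosome 17, 45585200 to 45599606), the main equilibrative nucleoside carrier, had 130.3, 181, 44.6 and 135 FPKM in the B-ALL, T-ALL, AML and AUL libraries, against 34.3, 31.02, 8.15 and 55.7 in their normal B, T, myeloid and lineage-negative counterparts. Here the groups overlapped, since AML was below normal lineage-negative cells, although each leukaemia was above the normal cells of its own gate. The mean log2 difference was 1.99 ± 0.35 (SE), adjusted p = 0.042, with limma. Exons of Slc29a1 overlap an antisense gene, Gm17080, and the strand setting of the counting is not given in the sources used here.

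Slc15a2 (ENSMUSG00000022899, mm10 chromosome 16, 36750178 to 36784962), a proton-coupled carrier of di- and tripeptides, had 0.527, 0.121, 0.103 and 0.283 FPKM in the B-ALL, T-ALL, AML and AUL libraries, against 35.4, 31.02, 6.28 and 16.5 in their normal B, T, myeloid and lineage-negative counterparts. It was under 1 FPKM in all 4 leukaemias, and the lowest normal library was 11.9 times the highest leukaemia. The mean log2 difference was -3.98 ± 0.51 (SE), adjusted p = 0.033, with limma.

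Slc46a3 (ENSMUSG00000029650, mm10 chromosome 5, 147878437 to 147894815), a lysosomal carrier, had 0.541, 0.71, 0.161 and 0.746 FPKM in the B-ALL, T-ALL, AML and AUL libraries, against 15.9, 8.3, 5.32 and 8.87 in their normal B, T, myeloid and lineage-negative counterparts. No leukaemia reached 1 FPKM and no normal library fell below 5.32 FPKM. The mean log2 difference was -2.71 ± 0.43 (SE), adjusted p = 0.037, with limma.

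**Figure D2:**
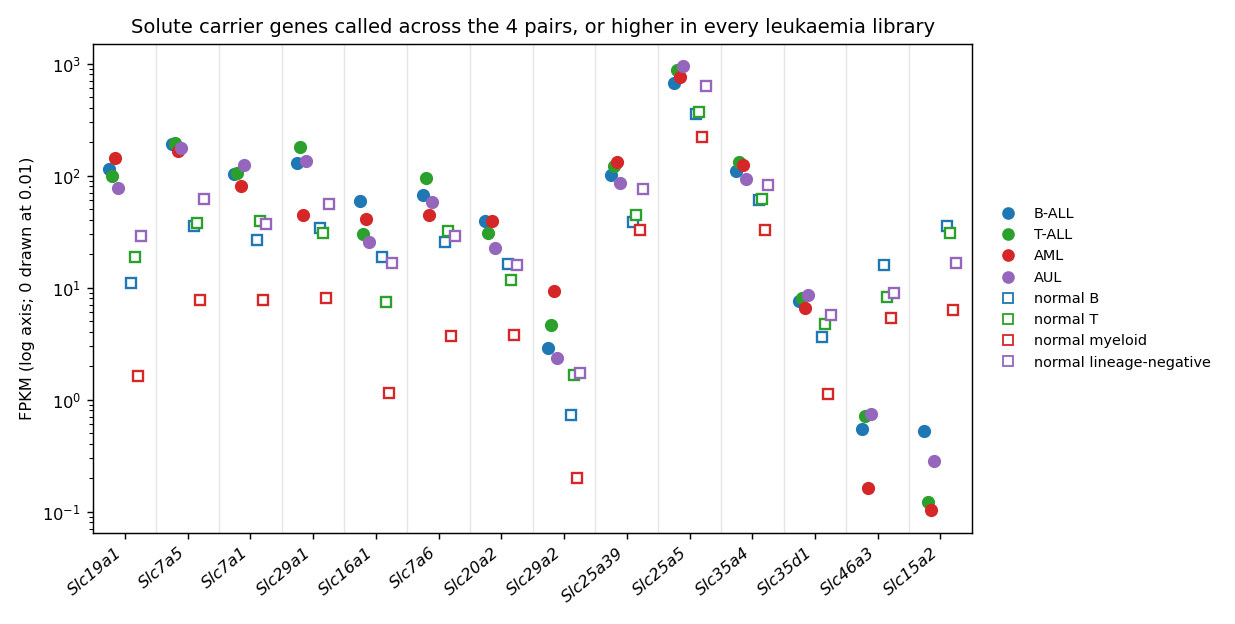
FPKM of 14 solute carrier genes on a log axis, with 1 point per library. Filled circles on the left of each gene are the leukaemias, open squares on the right the normal libraries, and a colour marks the gate. Slc7a5 lies between 167 and 196 in the 4 leukaemias and between 7.69 and 61.4 in the normal libraries, and Slc15a2 and Slc46a3 lie under 1 in every leukaemia.

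More genes kept the groups apart than passed the test. In 13 of 187 members (6.95%) all 4 leukaemia libraries lay above all 4 normal libraries, against 14.5% of all genes with at least 1 FPKM somewhere. In 18 members (9.63%) all 4 lay below, against 10.2%. Neither share was above that of all genes. Beside Slc7a5, Slc19a1 and Slc7a1, the 13 higher genes were Slc16a1, Slc16a8, Slc1a4, Slc20a2, Slc25a39, Slc25a5, Slc29a2, Slc35a4, Slc35d1 and Slc7a6. Among the 18 lower ones were Slc15a2, Slc46a3, the lysosomal nucleoside carrier gene Slc29a3 and the neutral amino acid carrier genes Slc43a2 and Slc7a8.

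Promoters of 6 genes are shown because Myc proteins are known to bind the E-box CACGTG. They are the genes that passed limma and had a window, and Slc16a1, which did not pass. Slc16a1 is the only gene of the separated groups with the motif, and for Slc29a1 the window with the motif is printed. The printed windows therefore do not show how often the motif occurs. Each window runs from 250 bases before to 50 bases after a RefSeq transcript start (GRCm38.p6, the assembly of mm10), and capitals mark CACGTG, which reads the same on both strands. Windows were found for 145 of the 187 members, and 25 of these genes (17.2%) held the motif in at least 1 window. The share was 11.5% of 7942 listed genes with at least 1 FPKM and a window, and 8.09% of 27025 genes in the whole promoter table. Of the 10 genes with windows among the 13 whose leukaemias all lay above the normal libraries, only Slc16a1 held it, and of the 15 with windows among the 18 on the lower side, 0 did.
Slc16a1 (chr3:104638414-104638713, plus strand): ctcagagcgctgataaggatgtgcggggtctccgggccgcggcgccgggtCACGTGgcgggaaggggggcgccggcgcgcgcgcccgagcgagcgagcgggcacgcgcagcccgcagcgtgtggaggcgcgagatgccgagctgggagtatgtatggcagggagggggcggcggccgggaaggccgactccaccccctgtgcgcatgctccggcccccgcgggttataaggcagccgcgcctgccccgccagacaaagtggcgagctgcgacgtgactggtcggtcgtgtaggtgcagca
Slc29a1 (chr17:45595197-45595496, minus strand): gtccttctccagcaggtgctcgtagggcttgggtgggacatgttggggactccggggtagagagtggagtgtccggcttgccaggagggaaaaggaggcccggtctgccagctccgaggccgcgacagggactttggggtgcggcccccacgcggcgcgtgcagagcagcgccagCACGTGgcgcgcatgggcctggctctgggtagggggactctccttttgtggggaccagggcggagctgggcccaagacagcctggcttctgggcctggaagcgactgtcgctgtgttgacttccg
Slc19a1 (chr10:77032489-77032788, plus strand): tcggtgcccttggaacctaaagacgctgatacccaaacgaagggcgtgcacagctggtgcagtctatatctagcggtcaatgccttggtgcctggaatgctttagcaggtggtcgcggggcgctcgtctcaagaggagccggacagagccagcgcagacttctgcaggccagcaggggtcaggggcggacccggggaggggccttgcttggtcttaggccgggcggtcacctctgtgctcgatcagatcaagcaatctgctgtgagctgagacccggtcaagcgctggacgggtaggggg
Slc7a1 (chr5:148399855-148400154, minus strand): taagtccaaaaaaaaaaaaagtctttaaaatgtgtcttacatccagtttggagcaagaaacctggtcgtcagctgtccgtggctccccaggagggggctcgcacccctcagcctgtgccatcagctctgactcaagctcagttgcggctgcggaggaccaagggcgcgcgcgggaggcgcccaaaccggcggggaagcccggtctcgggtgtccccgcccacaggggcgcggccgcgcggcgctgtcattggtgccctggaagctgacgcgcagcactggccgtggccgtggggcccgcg
Slc15a2 (chr16:36784913-36785212, minus strand): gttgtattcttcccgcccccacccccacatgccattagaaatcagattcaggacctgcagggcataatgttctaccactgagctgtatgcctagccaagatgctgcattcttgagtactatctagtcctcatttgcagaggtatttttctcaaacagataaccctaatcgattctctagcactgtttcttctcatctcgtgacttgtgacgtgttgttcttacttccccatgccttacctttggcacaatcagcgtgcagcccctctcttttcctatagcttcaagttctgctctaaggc
Slc46a3 (chr5:147894766-147895065, minus strand): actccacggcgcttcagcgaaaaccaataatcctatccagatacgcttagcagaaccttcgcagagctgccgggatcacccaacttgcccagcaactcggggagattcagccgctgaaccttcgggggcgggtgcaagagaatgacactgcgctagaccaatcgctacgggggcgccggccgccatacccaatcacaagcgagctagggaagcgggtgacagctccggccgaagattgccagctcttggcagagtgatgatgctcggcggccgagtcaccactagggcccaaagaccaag

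The motif begins 200 bases before the start in the Slc16a1 window. In Slc29a1 it begins 75 bases before the start in 1 of 8 windows of that gene, the one printed, and the window nearest the end of the deposited locus does not hold it. These letters are not in the printed windows of the other 4 genes. G and C made up 73.7% of the Slc16a1 window, 67.7% of the Slc29a1 window, 62.3% of the Slc19a1 window and 65.0% of the Slc7a1 window, against 46.3% for Slc15a2 and 60.0% for Slc46a3.

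Amino acid carriers of the plasma membrane summed to more FPKM in each leukaemia than in the normal cells of its gate, at 1608, 1422, 1384 and 1199 in the B-ALL, T-ALL, AML and AUL libraries and 1037, 778, 544 and 868 in their normal B, T, myeloid and lineage-negative counterparts. Of the 16 genes on the list, Slc38a2 is not analysed here and 15 were members. Calls of at least 2-fold, higher and lower, numbered 4 and 2 of 13 in B-ALL, 4 and 1 of 12 in T-ALL, 8 and 2 of 14 in AML and 4 and 4 of 15 in AUL. Their median log2 ratios were 0.24, 0.67, 2.11 and 0.34, positive under each scaling, and 2 of the 15 passed limma (Slc7a5 and Slc7a1, both higher). Among all genes, 18.2%, 22.1%, 43.3% and 13.6% were at least 2-fold higher in these gates, and 21.9%, 24%, 26.7% and 29.5% lower. Slc1a5, which takes up glutamine and other neutral amino acids, had 845, 596, 573 and 451 FPKM in the B-ALL, T-ALL, AML and AUL libraries, against 587, 351, 57.7 and 356 in their normal B, T, myeloid and lineage-negative counterparts. The difference in AML, 9.93-fold higher (95% counting interval 9.59 to 10.3), was the largest, with normal myeloid cells at the lowest level, and in the other 3 gates Slc1a5 was less than 2-fold higher. Slc3a2, the heavy chain shared by several Slc7 light chains, had 135, 211, 268 and 190.2 FPKM in the B-ALL, T-ALL, AML and AUL libraries, against 114, 140.3, 73.7 and 130.5 in their normal B, T, myeloid and lineage-negative counterparts. Among its light chains, Slc7a6, which exchanges cationic for neutral amino acids, had 67.2, 94.4, 44.8 and 58.4 FPKM in the B-ALL, T-ALL, AML and AUL libraries, against 25.5, 31.8, 3.66 and 28.9 in their normal B, T, myeloid and lineage-negative counterparts.

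Slc7a8 and Slc7a7, light chains of the same heavy chain, had lower levels in 4 of 4 pairs. Slc7a8, which also carries neutral amino acids, had 0.289, 0.0803, 0.217 and 0.176 FPKM in the B-ALL, T-ALL, AML and AUL libraries, against 1.47, 4.06, 2.4 and 10.4 in their normal B, T, myeloid and lineage-negative counterparts, a mean log2 difference of -1.98 ± 0.47 (SE), adjusted p = 0.057 with limma. Slc7a7, which carries cationic amino acids, was lowest in AML (0.708 FPKM, against 15.9 in normal myeloid cells). Of the summed FPKM of Slc7a5, Slc7a6, Slc7a7, Slc7a8 and Slc7a11, Slc7a5 took 72.9%, 67.1%, 76.1% and 74.3% in the B-ALL, T-ALL, AML and AUL libraries. Its share in normal libraries of these gates was 49.8%, 49.5%, 18.7% and 52.6%. The cystine carrier gene Slc7a11 was low outside the myeloid gate, with 6.58 FPKM in AML, against 11.3 FPKM in normal myeloid cells, and at most 1.43 FPKM in the other 6 libraries.

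Other amino acid carriers differed by gate. Slc38a1, a sodium-coupled glutamine carrier, was higher in 4 of 4 pairs (log2 ratios 0.13, 0.85, 2.65 and 1.14 in the B-ALL, T-ALL, AML and AUL libraries). The branched-chain amino acid carrier gene Slc43a2 was lower in 4 of 4 (log2 ratios -1.28, -0.62, -0.60 and -1.36), while its relative Slc43a1 had 9.43 FPKM in AML, against 0.50 FPKM in normal myeloid cells, and 14.7 FPKM in AUL, against 8.38 FPKM in normal lineage-negative cells. The taurine carrier gene Slc6a6 was abundant everywhere, with 97.4 to 181 FPKM in the leukaemias and 96.4 to 313 in the normal libraries. Slc16a10, which carries aromatic amino acids, had 6.28, 26.7, 12.9 and 0.482 FPKM in the B-ALL, T-ALL, AML and AUL libraries, against 5.62, 3.89, 14.3 and 23.5 in their normal B, T, myeloid and lineage-negative counterparts. It was 6.85-fold higher in T-ALL than in normal T cells and 48.8-fold lower in AUL than in lineage-negative cells. Slc1a4, a neutral amino acid carrier, was low throughout but above every normal library in every leukaemia, at 0.831 to 4.34 FPKM against 0.00981 to 0.323 FPKM.

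With the deposited values, 8 of 8 vitamin carriers compared in AML were at least 2-fold higher, against 43.3% of all genes, and with median-ratio scaling 5 of 8 were. All 9 genes on the list were members. By the 2-fold rule, higher and lower members were 2 and 1 of 8 in B-ALL, 2 and 0 of 9 in T-ALL, 8 and 0 of 8 in AML and 2 and 1 of 8 in AUL, with median log2 ratios of 0.40, 0.57, 1.73 and 0.53. The shares of all genes in these gates were 18.2%, 22.1%, 43.3% and 13.6% higher and 21.9%, 24%, 26.7% and 29.5% lower. Slc19a1 was the only one of the 9 to pass limma. Slc25a32, which brings folate into mitochondria, had 13.3, 10.7, 7.71 and 16.4 FPKM in the B-ALL, T-ALL, AML and AUL libraries, against 5.47, 8.31, 2.18 and 5.94 in their normal B, T, myeloid and lineage-negative counterparts, and was at least 2-fold higher in 3 gates. Slc46a1, the proton-coupled folate carrier, reached at most 2.55 FPKM (in AML). The ascorbate carrier gene Slc23a2 had its highest level in AML (103 FPKM in AML and 12.5 FPKM in normal myeloid cells, log2 ratio 2.95) and log2 ratios of -0.76, -0.12 and 0.50 in B-ALL, T-ALL and AUL. Slc5a6, which carries biotin and pantothenate, was higher in 4 of 4 pairs with log2 ratios of 0.83, 1.20, 1.84 and 0.30. The thiamine carrier gene Slc19a2 stayed between 5.95 and 8.64 FPKM in the leukaemias and between 1.62 and 6.47 FPKM in the normal libraries.

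Nucleoside carriers went in both directions. Of the 5 on the list, Slc28a3 stayed under the minimum and 4 were members. Higher and lower by at least 2-fold were 2 and 2 of 4 in B-ALL, 2 and 1 of 4 in T-ALL, 2 and 1 of 4 in AML and 1 and 2 of 4 in AUL. Median log2 ratios were -0.16, 0.32, 1.02 and -0.47. For all genes the shares in these gates were 18.2%, 22.1%, 43.3% and 13.6% higher and 21.9%, 24%, 26.7% and 29.5% lower. Slc29a2, a second equilibrative carrier, was higher in 4 of 4 pairs too, with 2.86, 4.64, 9.34 and 2.37 FPKM in the B-ALL, T-ALL, AML and AUL libraries, against 0.73, 1.66, 0.201 and 1.71 in their normal B, T, myeloid and lineage-negative counterparts. The concentrative carrier gene Slc28a2 was lower in 4 of 4 pairs, at 18.4 to 44.3 FPKM in the leukaemias and 45.3 to 81.4 FPKM in the normal libraries, a range without overlap. Slc29a3 was lower in 4 of 4 pairs as well (log2 ratios -1.48, -0.45, -1.40 and -2.59).

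Of the glucose carriers, 0 were at least 2-fold higher in a leukaemia. Of 7 on the list, Slc2a4 and Slc2a9 are not analysed here, and 4 were members. Counts at least 2-fold higher and lower were 0 and 1 of 4 in B-ALL, 0 and 1 of 4 in T-ALL, 0 and 3 of 4 in AML and 0 and 3 of 4 in AUL, with median log2 ratios of -0.40, -0.29, -2.02 and -1.35. Of all genes, 18.2%, 22.1%, 43.3% and 13.6% were higher in these gates, and with 4 genes a count of 0 higher says little against these shares. Lower were 21.9%, 24%, 26.7% and 29.5% of all genes, so that 1 of 4 is near the share of all genes. Slc2a1, the widely expressed glucose carrier, had 19.6, 25.9, 21.6 and 12.3 FPKM in the B-ALL, T-ALL, AML and AUL libraries, against 27.5, 29.98, 45.5 and 20.3 in their normal B, T, myeloid and lineage-negative counterparts, lower in 4 of 4 pairs and by less than 2-fold in 3 of them. Slc2a3, the high-affinity carrier of white blood cells, was highest in normal myeloid cells, with 74.02, 46.8, 71.5 and 31.5 FPKM in the B-ALL, T-ALL, AML and AUL libraries, against 44.8, 61.1, 578 and 84.05 in their normal B, T, myeloid and lineage-negative counterparts. Slc2a6 had the same highest library and was at least 2-fold lower in all 4 leukaemias, with 5.95, 0.716, 0.0703 and 1.34 FPKM in the B-ALL, T-ALL, AML and AUL libraries, against 14.97, 3.28, 80.8 and 17.3 in their normal B, T, myeloid and lineage-negative counterparts. In AML Slc2a6 was 1149-fold lower (95% counting interval 492 to 3541). The 8 neutrophil markers moved with Slc2a3 and Slc2a6 in this gate, at 10544 FPKM in AML and 184693 FPKM in normal myeloid cells, and their part was not tested.

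Of the monocarboxylate carriers, Slc16a1 was higher in 4 of 4 pairs and Slc16a3 differed in direction by gate. Slc16a6 is not analysed here and 3 of 4 listed genes were members. Calls of at least 2-fold, higher and lower, numbered 2 and 1 of 3 in B-ALL, 1 and 0 of 2 in T-ALL, 1 and 2 of 3 in AML and 0 and 2 of 3 in AUL. All genes had shares of 18.2%, 22.1%, 43.3% and 13.6% higher and 21.9%, 24%, 26.7% and 29.5% lower in these gates. Slc16a1, which moves lactate and pyruvate in either direction, had 59.2, 30.3, 40.9 and 25.5 FPKM in the B-ALL, T-ALL, AML and AUL libraries, against 18.8, 7.49, 1.14 and 16.6 in their normal B, T, myeloid and lineage-negative counterparts. Each leukaemia was above each normal library, but its mean log2 difference of 2.09 ± 0.60 (SE), adjusted p = 0.071 with limma missed the threshold. Slc16a3, the lactate exporter of glycolytic cells, had 31.9, 13.7, 109.8 and 14.4 FPKM in the B-ALL, T-ALL, AML and AUL libraries, against 5.84, 8.29, 364 and 49.0 in their normal B, T, myeloid and lineage-negative counterparts. It was higher than normal in B-ALL and lower in AML and AUL, and AML still had the highest level among the leukaemias. Slc16a7 reached at most 4.47 FPKM (in lineage-negative cells) and was listed at 0 in AUL.

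**Figure D3:**
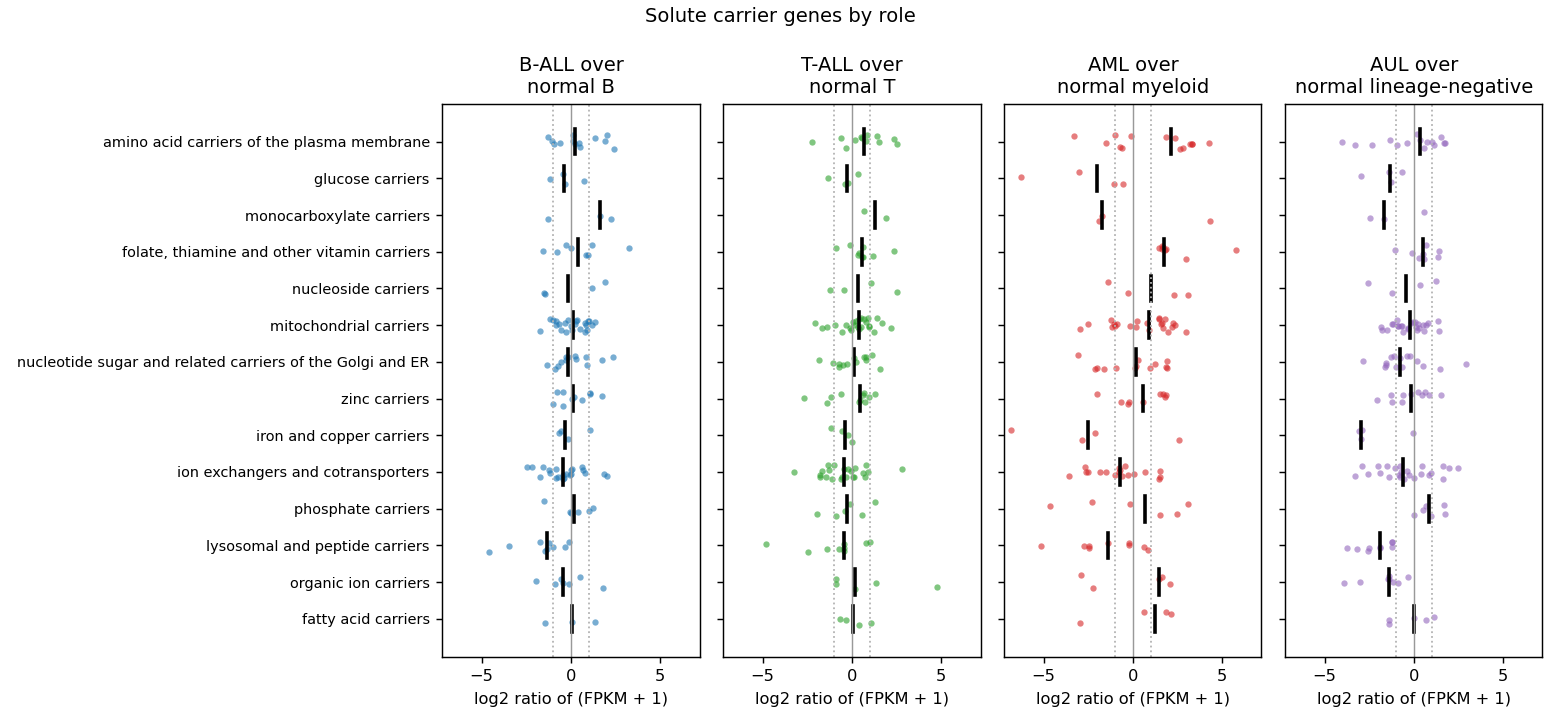
Within-gate log2 ratio of (FPKM + 1), leukaemia over normal, for the members of 14 role lists, with 1 point per gene and a black bar at each list's median. Dotted lines mark the 2-fold limits, and each panel is 1 gate. Lysosomal and peptide carriers lie left of 0 in AUL, where 9 of 9 were at least 2-fold lower, against 29.5% of all genes. In AML 8 of 8 vitamin carriers were at least 2-fold higher, against 43.3% of all genes, and 5 of 8 with median-ratio scaling.

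Mitochondrial carriers of family 25 were the largest family, with 27 members of 31 listed genes. By the 2-fold rule, higher and lower members were 3 and 3 of 24 in B-ALL, 4 and 3 of 25 in T-ALL, 11 and 6 of 23 in AML and 2 and 5 of 26 in AUL. Median log2 ratios were 0.12, 0.38, 0.88 and -0.24. Among all genes, 18.2%, 22.1%, 43.3% and 13.6% were higher in these gates and 21.9%, 24%, 26.7% and 29.5% lower. The 11 of 23 in AML are near the share of all genes. The ADP/ATP carrier gene Slc25a5 had 672, 884, 761 and 947 FPKM in the B-ALL, T-ALL, AML and AUL libraries, against 354, 368, 222 and 632 in their normal B, T, myeloid and lineage-negative counterparts. Every leukaemia exceeded every normal library, by little over lineage-negative cells. Its paralogue Slc25a4 was highest in AUL, with 129.6, 80.8, 52.03 and 201 FPKM in the B-ALL, T-ALL, AML and AUL libraries, against 65.6, 88.6, 10.6 and 73.8 in their normal B, T, myeloid and lineage-negative counterparts. The annotation names 1 pseudogene of Slc25a5, and how the authors counted reads that fit several places is not given in the sources used here.

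Slc25a39, which brings glutathione into mitochondria, had 100.3, 121, 133 and 85.8 FPKM in the B-ALL, T-ALL, AML and AUL libraries, against 38.4, 44.7, 32.8 and 76.6 in their normal B, T, myeloid and lineage-negative counterparts. The aspartate-glutamate carrier gene Slc25a13 was higher in B-ALL, T-ALL and AML and near 0 in AUL (log2 ratios 0.78, 2.17, 3.0 and 0.08). Slc25a12, with the same substrates, had -1.18, -0.35, 0.22 and -0.88. The carrier of S-adenosylmethionine, Slc25a26, had log2 ratios of 0.50, 0.52, 2.37 and -0.34, and the citrate carrier gene Slc25a1 0.78, 0.91, 2.23 and -0.62. Slc25a38, which supplies glycine for haem synthesis, was lower in 4 of 4 pairs and nearly equal within each group, at 16.5 to 17.4 FPKM in the leukaemias and 32.7 to 40.5 FPKM in the normal libraries. The carnitine-acylcarnitine carrier gene Slc25a20 was lower in B-ALL, AML and AUL and near 0 in T-ALL (log2 ratios -0.33, -0.07, -1.07 and -0.32). The calcium-regulated ATP-Mg/phosphate carriers differed, with Slc25a24 highest in normal myeloid cells (12.9 FPKM in AML and 78.8 FPKM in normal myeloid cells) and Slc25a23 under 1 FPKM in both myeloid-gate libraries and at 12.05 FPKM or more in the other 6.

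The whole of family 35 was listed, although not all of its members lie in the Golgi and endoplasmic reticulum. Its carriers gave 2 and 1 of 13 in B-ALL, 2 and 2 of 13 in T-ALL, 4 and 4 of 13 in AML and 2 and 6 of 15 in AUL at least 2-fold higher and lower. Their median log2 ratios were -0.19, 0.13, 0.19 and -0.77, and those of T-ALL and AML turned negative under median-ratio scaling (-0.01 and -0.58). The shares of all genes were 18.2%, 22.1%, 43.3% and 13.6% higher and 21.9%, 24%, 26.7% and 29.5% lower in the same gates. Slc35f2 had 14.8, 21.2, 0.546 and 17.1 FPKM in the B-ALL, T-ALL, AML and AUL libraries, against 2.06, 6.33, 0.0451 and 1.41 in their normal B, T, myeloid and lineage-negative counterparts. The 3 leukaemias outside the myeloid gate stood at 14.8 to 21.2 FPKM, and both myeloid-gate libraries were under 1. Slc35a4 had 93.9 to 133 FPKM in the leukaemias and 32.7 to 83.1 FPKM in the normal libraries. Slc35d2 was lower in 4 of 4 pairs (log2 ratios -0.92, -1.82, -3.05 and -1.62). Slc35b2, which brings the sulfate donor PAPS into the Golgi, had its largest difference in AML (61.9 FPKM in AML and 15.6 FPKM in normal myeloid cells).

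Zinc carriers gave 3 and 1 of 10 in B-ALL, 1 and 3 of 11 in T-ALL, 4 and 1 of 9 in AML and 1 and 3 of 11 in AUL at least 2-fold higher and lower. Median log2 ratios were 0.11, 0.45, 0.57 and -0.15, with a sign that turned under median-ratio scaling in B-ALL (-0.02) and AML (-0.28). For all genes the shares were 18.2%, 22.1%, 43.3% and 13.6% higher and 21.9%, 24%, 26.7% and 29.5% lower in these gates. The importer genes Slc39a6 and Slc39a10 were higher in 4 of 4 pairs. Slc39a6 had 57.6, 42.3, 21.4 and 45.6 FPKM in the B-ALL, T-ALL, AML and AUL libraries, against 16.6, 25.2, 5.27 and 25.2 in their normal B, T, myeloid and lineage-negative counterparts. Slc39a10 had log2 ratios of 1.05, 1.3, 1.54 and 0.64. The exporter gene Slc30a1 was lower in 4 of 4 pairs, at 2.56 to 3.81 FPKM in the leukaemias and 3.86 to 8.52 FPKM in the normal libraries. Slc39a14, a carrier of zinc and iron, was under 1 FPKM in both myeloid-gate libraries and at 19.4 to 26.1 FPKM in the other 3 leukaemias.

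Of the iron and copper carriers, Slc11a1, Slc31a2 and Slc40a1 were highest in normal myeloid cells. Of 8 on the list, 4 were members, and Slc25a28, Slc25a37, Slc31a1 and Slc48a1 are not analysed here. Higher and lower by at least 2-fold were 1 and 0 of 4 in B-ALL, 0 and 1 of 4 in T-ALL, 1 and 3 of 4 in AML and 0 and 3 of 4 in AUL, with median log2 ratios of -0.35, -0.40, -2.50 and -2.95. All genes had shares of 18.2%, 22.1%, 43.3% and 13.6% higher and 21.9%, 24%, 26.7% and 29.5% lower in these gates. Slc11a1, which pumps divalent metals out of phagosomes, had 10.9, 1.0, 0.27 and 1.09 FPKM in the B-ALL, T-ALL, AML and AUL libraries, against 4.69, 1.04, 143 and 15.5 in their normal B, T, myeloid and lineage-negative counterparts. In AML it was 528-fold lower (95% counting interval 315 to 967). Slc40a1, the iron exporter ferroportin, had 11.3, 1.79, 24.9 and 2.97 FPKM in the B-ALL, T-ALL, AML and AUL libraries, against 16.9, 3.15, 190.1 and 28.8 in their normal B, T, myeloid and lineage-negative counterparts. The importer gene Slc11a2 went the other way in the myeloid gate, with 20.1 FPKM in AML, against 2.56 FPKM in normal myeloid cells, and was lower in T-ALL (26.7 FPKM in T-ALL and 62.4 FPKM in normal T cells). Slc31a2, a copper carrier of endosomes and lysosomes, was lower in AML (25.2 FPKM in AML and 113 FPKM in normal myeloid cells) and AUL (2.89 FPKM in AUL and 31.9 FPKM in normal lineage-negative cells). The 8 neutrophil markers moved with this group in the myeloid and lineage-negative gates, at 10544 FPKM in AML against 184693 in normal myeloid cells, and 2278 in AUL against 21009.6 in lineage-negative cells, and their part in the result was not tested. Of 11 erythroid markers, the summed level was 3.85 to 151 FPKM in the leukaemias and 31.8 to 105 FPKM in the normal libraries, with Rhag at 0 in T-ALL and Hba-a2 at 0 in AML. Slc4a1, the anion exchanger of red cells, had at most 3.39 FPKM in the leukaemias and 10.7 in normal lineage-negative cells.

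Exchangers and cotransporters of ions, 27 members of families 4, 8, 9, 12, 24 and 26, gave 2 and 6 of 22 in B-ALL, 1 and 8 of 23 in T-ALL, 3 and 6 of 18 in AML and 4 and 8 of 24 in AUL at least 2-fold higher and lower. Median log2 ratios were -0.43, -0.43, -0.74 and -0.62, negative under each scaling. With median-ratio scaling the AML counts became 1 higher and 11 lower. Among all genes, 18.2%, 22.1%, 43.3% and 13.6% were higher with the deposited values and 21.9%, 24%, 26.7% and 29.5% lower in these gates. Slc12a3, the thiazide-sensitive sodium-chloride cotransporter, was lower in 4 of 4 pairs and had its highest level in normal B cells (1.87 FPKM in B-ALL and 12.1 FPKM in normal B cells). Slc12a2, which imports sodium, potassium and chloride, was higher in B-ALL, T-ALL and AUL (log2 ratios 2.04, 0.90 and 1.62) and under 1 FPKM in both myeloid-gate libraries. Slc12a7 was highest in normal T cells, with 17.3 FPKM in T-ALL, against 57.8 FPKM in normal T cells. Slc8b1, the sodium-calcium exchanger of mitochondria, had 109 FPKM in AML, against 102 FPKM in normal myeloid cells, and 6.69 FPKM in AUL, against 74.2 FPKM in normal lineage-negative cells. AML was close to normal myeloid cells, while AUL was 11.1-fold lower (95% counting interval 9.97 to 12.4) than lineage-negative cells.

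The phosphate importer genes Slc20a1 and Slc20a2 were expressed in every library. Among 6 members of 8 listed phosphate and sugar-phosphate carriers, Slc34a1 stayed under the minimum and Slc34a2 is not analysed here. Counts at least 2-fold higher and lower were 2 and 1 of 6 in B-ALL, 1 and 1 of 6 in T-ALL, 3 and 2 of 6 in AML and 2 and 0 of 6 in AUL, with median log2 ratios of 0.20, -0.26, 0.67 and 0.83, and that of AML was -0.15 under median-ratio scaling. The shares of all genes were 18.2%, 22.1%, 43.3% and 13.6% higher and 21.9%, 24%, 26.7% and 29.5% lower in these gates. Slc20a2 had 39.6, 30.4, 38.9 and 22.7 FPKM in the B-ALL, T-ALL, AML and AUL libraries, against 16.2, 11.6, 3.78 and 15.9 in their normal B, T, myeloid and lineage-negative counterparts, with each leukaemia above each normal library. Slc37a4, which moves glucose-6-phosphate into the endoplasmic reticulum, was higher in B-ALL, T-ALL and AML and near 0 in AUL (log2 ratios 0.42, 0.59, 2.47 and 0.03). Slc37a3 differed in direction, with 0.573 FPKM in AML, against 37.96 FPKM in normal myeloid cells, and 40.8 FPKM in AUL, against 11.96 FPKM in normal lineage-negative cells.

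Lysosomal and peptide carriers leaned to lower levels. All 9 listed genes were members, and at least 2-fold higher and lower were 0 and 6 of 9 in B-ALL, 0 and 3 of 9 in T-ALL, 0 and 5 of 9 in AML and 0 and 9 of 9 in AUL. Of all genes, 18.2%, 22.1%, 43.3% and 13.6% were higher in these gates. Lower were 21.9%, 24%, 26.7% and 29.5% of all genes, and the lower count of T-ALL is near its share. Median log2 ratios were -1.35, -0.45, -1.40 and -1.89, below those of all genes and negative under each scaling. Slc15a2 and Slc46a3 passed limma downwards. Slc15a3, a histidine and peptide carrier of endolysosomes, was at least 2-fold lower in all 4 leukaemias, with 7.86, 0.475, 2.09 and 0.859 FPKM in the B-ALL, T-ALL, AML and AUL libraries, against 21.6, 2.95, 110.5 and 16.1 in their normal B, T, myeloid and lineage-negative counterparts. Its mean log2 difference of -2.79 ± 0.70 (SE), adjusted p = 0.06 with limma missed the threshold. Slc15a4, its relative in Toll-like receptor signalling of dendritic and B cells, was highest in normal B cells (30.4 FPKM in B-ALL and 103 FPKM in normal B cells), while the 5 markers of plasmacytoid dendritic cells summed to 281 FPKM in B-ALL and 2386 FPKM in normal B cells, and their part in the result was not tested. Slc38a9, which reports lysosomal arginine to the mTORC1 kinase, was lower in 4 of 4 pairs (log2 ratios -1.25, -0.43, -0.23 and -1.21). Slc36a1, a proton-coupled amino acid carrier, had 10.7, 55.8, 55.1 and 14.6 FPKM in the B-ALL, T-ALL, AML and AUL libraries, against 22.4, 27.6, 30.3 and 56.6 in their normal B, T, myeloid and lineage-negative counterparts. By the rule on (FPKM + 1) only AUL passed 2-fold, while the plain FPKM ratios were 2.09-fold lower (1.92 to 2.26) in B-ALL and 2.02-fold higher (1.92 to 2.13) in T-ALL, just past it.

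Organic ion carriers of families 22 and 47 gave 1 and 1 of 7 in B-ALL, 2 and 0 of 5 in T-ALL, 3 and 2 of 5 in AML and 0 and 6 of 8 in AUL at least 2-fold higher and lower, with median log2 ratios of -0.43, 0.14, 1.46 and -1.38, and T-ALL at -0.02 under median-ratio scaling. For all genes the shares in these gates were 18.2%, 22.1%, 43.3% and 13.6% higher and 21.9%, 24%, 26.7% and 29.5% lower, here and for the fatty acid carriers below. Slc22a4, the ergothioneine carrier, had 0.778, 0.198, 46.3 and 0.228 FPKM in the B-ALL, T-ALL, AML and AUL libraries, against 1.39, 1.23, 14.1 and 17.7 in their normal B, T, myeloid and lineage-negative counterparts. The carnitine carrier gene Slc22a5 was even outside the myeloid gate, at 9.84 to 17.4 FPKM in the 3 other leukaemias and 12.8 to 15.6 FPKM in the 3 other normal libraries, with 15.4 FPKM in AML, against 2.88 FPKM in normal myeloid cells. Fatty acid carriers gave 1 and 1 of 3 in B-ALL, 1 and 0 of 4 in T-ALL, 2 and 1 of 4 in AML and 1 and 2 of 5 in AUL higher and lower. Their medians were 0.05, 0.04, 1.23 and -0.01, and the sign turned under median-ratio scaling in B-ALL, T-ALL and AUL (-0.06, -0.13 and 0.13). Slc27a4 was highest in normal myeloid cells (16.7 FPKM in AML and 137 FPKM in normal myeloid cells), and Slc27a2 in AML (10.4 FPKM in AML and 1.57 FPKM in normal myeloid cells).

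**Figure D4:**
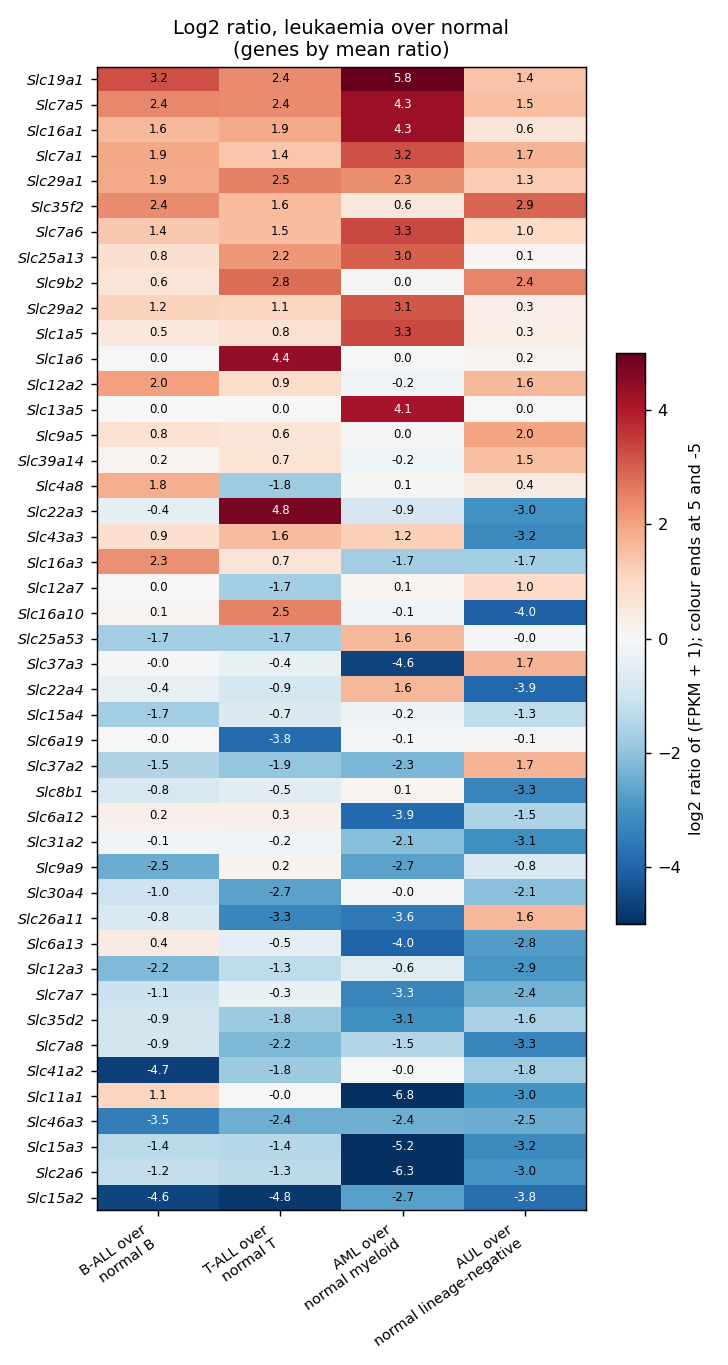
Within-gate log2 ratio of (FPKM + 1), leukaemia over normal, for the members named among the 8 highest or 8 lowest ratios of a gate, in rows ordered by mean ratio. Columns are the 4 gates, red is higher in the leukaemia and blue lower, and the colour scale ends at 5 and -5. Slc19a1 heads the map, with 3.24, 2.35, 5.77 and 1.41, and Slc15a2 closes it with -4.58, -4.84, -2.72 and -3.77.

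B-ALL was compared with normal B cells to see which carriers differ in leukaemia cells of the B220 gate. The 8 highest members with at least 5 FPKM were Slc19a1, Slc7a5, Slc35f2, Slc16a3, Slc12a2, Slc7a1, Slc29a1 and Slc4a8. Slc19a1 was 10.2-fold higher (95% counting interval 9.36 to 11.2), Slc35f2 7.2-fold higher (6.14 to 8.48) and Slc16a3 5.47-fold higher (4.89 to 6.13). Slc4a8, a sodium-driven bicarbonate exchanger, had 11.7 FPKM in B-ALL, against 2.56 FPKM in normal B cells, whereas in T-ALL it was lower (0.423 FPKM in T-ALL and 3.85 FPKM in normal T cells). Among the 8 at the low end were Slc41a2, Slc15a2, Slc46a3, Slc9a9, Slc12a3, Slc15a4 and Slc25a53. The magnesium carrier gene Slc41a2 was 110.5-fold lower (95% counting interval 68.8 to 190.2), at 0.291 FPKM in B-ALL and 32.2 FPKM in normal B cells. Slc15a2 was 67.2-fold lower (45.7 to 103), and Slc9a9, an exchanger of endosomes, 10.3-fold lower (8.26 to 13.05). B-cell markers summed to 2041 FPKM in B-ALL and 4562 FPKM in normal B cells, and plasmacytoid dendritic cell markers to 281 and 2386 FPKM in the same order. Neutrophil markers were higher in B-ALL, at 11945 FPKM against 2893 FPKM in normal B cells, as were T-cell markers, at 325 FPKM in B-ALL against 184 FPKM in normal B cells. The part of these markers in the ratios was not tested.

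T-ALL was set against normal T cells of the CD3 gate. The 8 highest members were Slc22a3, Slc1a6, Slc9b2, Slc29a1, Slc16a10, Slc7a5, Slc19a1 and Slc25a13. Slc22a3, an organic cation carrier, was 64.4-fold higher (95% counting interval 52.8 to 79.5), and its exons overlap those of Plg on the opposite strand. The glutamate carrier gene Slc1a6, known from Purkinje cells, had 20.1 FPKM in T-ALL and was at 0 in normal T cells, at least 331-fold higher with 3 fragments as the floor. Slc9b2, a sodium-proton exchanger, was high in T-ALL (8.01 FPKM in T-ALL and 0.298 FPKM in normal T cells) and in AUL (4.91 FPKM in AUL and 0.0869 FPKM in normal lineage-negative cells), and at most 0.682 FPKM elsewhere. The 8 lowest were Slc15a2, Slc6a19, Slc26a11, Slc30a4, Slc46a3, Slc35d2, Slc25a53 and Slc12a7. Slc6a19, a neutral amino acid carrier of gut and kidney, was 161-fold lower (95% counting interval 81.2 to 373), and it was near 0 in all libraries except normal T cells. Slc26a11, a sulfate and anion carrier, was 14.5-fold lower (12.05 to 17.6) and Slc30a4, which loads zinc into vesicles, 151-fold lower (73.1 to 377). B-cell markers summed to 6.43 FPKM in T-ALL and 685 FPKM in normal T cells. Basophil and mast cell markers summed to 1.72 FPKM in T-ALL and 516 FPKM in normal T cells, and the part of both lists was not tested.

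AML was set against normal Mac1+Gr1+ cells of the same gate. The 8 highest were Slc19a1, Slc16a1, Slc7a5, Slc13a5, Slc7a6, Slc1a5, Slc7a1 and Slc29a2. Slc7a5 was 21.7-fold higher (95% counting interval 19.96 to 23.6) and Slc16a1 35.8-fold higher (31.7 to 40.7). The citrate carrier gene Slc13a5 had 16.3 FPKM in AML and was at 0 in the other 7 libraries. Against normal myeloid cells it was at least 600.1-fold higher, with 3 fragments as the floor, and its exons overlap a transcript on the opposite strand. The 8 lowest were Slc11a1, Slc2a6, Slc15a3, Slc37a3, Slc6a13, Slc6a12, Slc26a11 and Slc7a7. Slc37a3 was 66.2-fold lower (95% counting interval 46.3 to 98.4). The GABA and betaine carrier genes Slc6a13 and Slc6a12 were lower too, at 0.374 FPKM in AML and 21.3 FPKM in normal myeloid cells and 0.0826 FPKM in AML and 15.1 FPKM in normal myeloid cells. Slc26a11 rested on few fragments in AML, 382-fold lower (106 to 3162). Neutrophil markers differed in the same gate by the sums given above, and their part was not tested. With median-ratio scaling every one of these 16 genes kept its direction.

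AUL was set against normal lineage-negative cells. The 8 highest were Slc35f2, Slc9a5, Slc37a2, Slc7a1, Slc37a3, Slc26a11, Slc12a2 and Slc39a14. Slc35f2 was 12.1-fold higher (95% counting interval 10.1 to 14.6) and the sodium-proton exchanger gene Slc9a5 5.57-fold higher (4.89 to 6.35). Slc37a2, a sugar-phosphate carrier known from macrophages, had 10.2 FPKM in AUL, against 2.42 FPKM in normal lineage-negative cells, and was lower in the other 3 leukaemias (log2 ratios -1.51, -1.94 and -2.28). Slc7a1 was 3.32-fold higher (3.21 to 3.45). The 8 lowest were Slc16a10, Slc22a4, Slc15a2, Slc8b1, Slc7a8, Slc15a3, Slc43a3 and Slc31a2. Slc16a10 was 48.8-fold lower (95% counting interval 35.6 to 68.8), and Slc43a3, a purine nucleobase carrier, 9.82-fold lower (8.91 to 10.8). Slc7a8 was 59.3-fold lower (36.97 to 96.5). Basophil and mast cell markers summed to 4.24 FPKM in AUL against 2567 in lineage-negative cells, and their part in these lower values was not tested.

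Some carriers were high in 1 library. By the ratio of (FPKM + 1) in the highest library to that in the next, among members with at least 10 FPKM, the first 10 were Slc1a6, Slc13a5, Slc6a19, Slc41a2, Slc11a1, Slc2a3, Slc40a1, Slc27a4, Slc6a12 and Slc22a3. Of these 10, 5 had their highest level in normal myeloid cells. Without the limits on level and ratio, that library was highest for 17.1% of members and 16.0% of all genes. The widest gap of these shares was in normal lineage-negative cells, highest for 14.4% of members and 7.33% of all genes. The share of members was also above that of all genes in T-ALL, and below it in B-ALL, AML, AUL, normal B and normal T cells. T-ALL was highest for Slc1a6 (20.1 FPKM, next AUL with 0.113) and for Slc22a3 (44.8 FPKM, next normal lineage-negative cells with 8.24). Slc13a5 was listed above 0 in AML only. Normal T cells were highest for Slc6a19 (14.6 FPKM, next T-ALL with 0.0908), and normal B cells for Slc41a2 (32.2 FPKM, next normal T cells with 2.74). In the normal myeloid library Slc2a3 reached 578 FPKM, and for Slc11a1, Slc2a3, Slc40a1, Slc27a4 and Slc6a12 the next library was normal lineage-negative cells each time. Neutrophil markers had their highest sums in those same 2 libraries, 184693 and 21009.6 FPKM, and their part in this order was not tested.

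**Figure D5:**
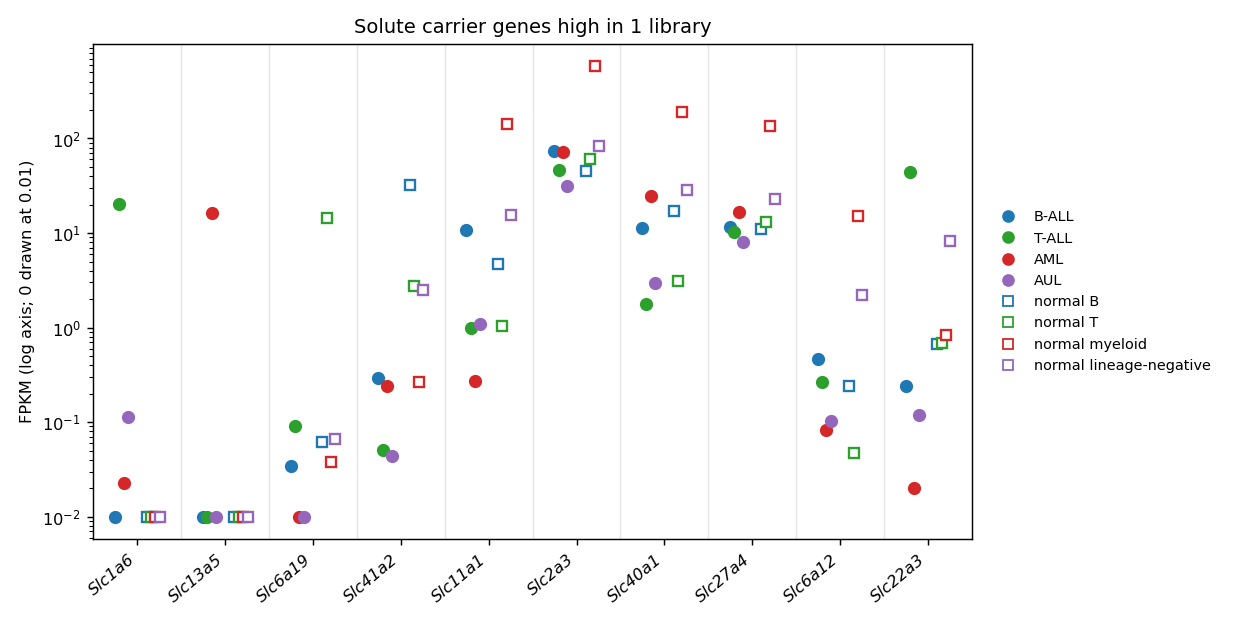
FPKM of the 10 carriers most confined to their highest library, on a log axis with 0 drawn at 0.01 and 1 point per library. Filled circles on the left are the leukaemias and open squares on the right the normal libraries, coloured by gate. Slc1a6 and Slc22a3 stand out in T-ALL at 20.1 and 44.8, Slc13a5 in AML at 16.3, and 5 genes in normal myeloid cells.

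Some members kept a minimum level in every library. Of 187 members, 87 had at least 1 FPKM in all 8 libraries and 32 had at least 10. The matching shares of all genes were not computed, so these counts are a description only. Among the 32 members with at least 10 FPKM throughout, the median ratio of the highest to the lowest library was 3.90. The ratio was highest for Slc25a4, at 19.02. Among the narrowest, named here after their values were seen, were the anion exchanger gene Slc4a2 (28.6 to 61.6 FPKM) and the oxoglutarate carrier gene Slc25a11 (53.3 to 123 FPKM). Their exons overlap those of Fastk and Rnf167 on the opposite strand. Exons of 49 of the 187 members overlap another annotated gene, among them Slc7a7, Slc15a3, Slc20a2 and Slc35a4, and the strand setting is not given in the sources used here.

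Transporters outside the rule served for comparison. The list held ATP-driven pumps of the ABC families, sodium-potassium ATPase subunits, the mitochondrial pyruvate carrier gene Mpc2, the phosphate exporter gene Xpr1 and the transferrin receptor gene Tfrc, and 33 of them reached 1 FPKM. Calls of at least 2-fold, higher and lower, numbered 6 and 5 of 29 in B-ALL, 6 and 10 of 26 in T-ALL, 11 and 7 of 29 in AML and 4 and 14 of 30 in AUL. Their median log2 ratios were -0.03, 0.00, -0.16 and -0.81, and that of T-ALL turned to -0.14 under median-ratio scaling, while that of AML turned to 0.06 with a common FPKM sum. All genes had shares of 18.2%, 22.1%, 43.3% and 13.6% higher and 21.9%, 24%, 26.7% and 29.5% lower in these gates. Tfrc, through which cells take up iron, had 349.8, 162, 270.3 and 149 FPKM in the B-ALL, T-ALL, AML and AUL libraries, against 208, 63.3, 18.6 and 141 in their normal B, T, myeloid and lineage-negative counterparts. The mitochondrial pump gene Abcb8 was higher in 4 of 4 pairs (log2 ratios 1.67, 2.14, 3.29 and 0.70), and Atp1b1, a sodium-potassium ATPase subunit, was lower in B-ALL (18.1 FPKM in B-ALL and 444 FPKM in normal B cells) and AUL (25.3 FPKM in AUL and 169.5 FPKM in normal lineage-negative cells).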

How the data were processed

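Poly(A) RNA of 8 sorted populations was sequenced as paired 150-base reads on an Illumina HiSeq instrument, per the labels' protocols. The deposited table holds FPKM per gene, made by the authors from reads compared with mm10. STAR, HTSeq and edgeR are named in the submitters' processing notes, without roles or versions. All 8 value columns were used.

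Values were compared as log2(FPKM + 1), leukaemia over normal of the same gate. Multiplying FPKM by mean transcript length (GENCODE vM21, 16380 genes) gave whole fragments, within 0.02, for 95.9% to 96.7% of low values (under 50.5 fragments) of single-transcript genes and 87.1% to 88.7% of those of all genes. Rounded fragments gave 95% intervals of a ratio of 2 counts (exact binomial, SciPy 1.17.1) and a floor of 3 fragments, and both cover counting error only. limma 3.58.1 (R 4.3.3, eBayes with trend) was fitted to all genes with the gate as a block, two-sided, threshold 0.05, and tested on simulated data. The pairing comes from the gate. P-values set the mean difference between leukaemia and normal against its spread across the 4 gates. In eBayes this spread is drawn towards that of other genes of similar level, so p-values and SE do not rest on the gene's own spread alone. They measure no spread between replicates of a leukaemia, since each group had 1 library.

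Named genes were the 8 highest and 8 lowest ratios per gate with at least 5 FPKM, the genes passing limma, the 10 most confined to 1 library with at least 10 FPKM, and the role lists. Members, lists and rules were chosen with earlier results of these data known. Alternatives covered scaling, pseudocount, filters, fold, block, trend, reference library and leaving out each pair. Some members count in the totals but are not reported here by name.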

Additional observations from a re-analysis of the deposited data

Results flagged for a closer look

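Carriers were listed when they were at least 2-fold higher in the leukaemia of 1 gate and at least 2-fold lower in that of another, with at least 20 FPKM in the higher library of each pair. With 1 library per group the differences between gates were not tested. Slc16a10, the aromatic amino acid carrier, had a log2 ratio of 2.50 in T-ALL and -4.05 in AUL, a difference of 6.55. Slc37a3, a member of the sugar-phosphate carrier family, had 1.69 in AUL and -4.63 in AML, a difference of 6.32. For the nucleobase carrier gene Slc43a3 the log2 ratios were 1.56 in T-ALL and -3.18 in AUL (difference 4.74), with 34.5 FPKM in T-ALL and 10.8 FPKM in AUL. The lactate exporter gene Slc16a3 had 2.27 in B-ALL and -1.72 in AML (difference 3.99). Slc11a2, an iron importer, had 2.57 in AML and -1.20 in T-ALL (difference 3.76).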

How the results depend on the processing

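The gate block rests on the sort, and no label gives replicate numbers. No paired analysis was possible because the labels number no replicates, beyond the block by gate. In place of the 4 higher and 2 lower members by limma, 5 and 5 passed with median-ratio scaling, 0 and 2 with a common FPKM sum (unadjusted p under 0.05 in 21 and 25), 6 and 5 with a pseudocount of 0.1, 0 and 0 without the filter on low FPKM (unadjusted p under 0.05 in 21 and 31), 5 and 3 with a minimum of 5 FPKM, 0 and 2 without the gate block (unadjusted in 19 and 23), and 2 and 2 without the trend. Of all genes, 140 and 268 passed in the main fit, 354 and 566 with median-ratio scaling and 33 and 137 with a common FPKM sum. A pseudocount of 0.1 gave 309 and 530, no filter 3 and 0, and the 5 FPKM minimum 434 and 507. Without the gate block 8 and 33 of all genes passed, and without the trend 72 and 214. Leaving out 1 pair gave 0 to 0 higher and 0 to 1 lower members (unadjusted in 11 to 18 and 14 to 23). The mean log2 differences of the 6 genes kept their sign under all 11 alternatives, with adjusted p from 0.019 to 0.13. Raising the fold to 4 left 6, 8, 23 and 3 higher members and 5, 7, 29 and 25 lower members in the B-ALL, T-ALL, AML and AUL libraries. Of the calls at this fold, 54.5%, 53.3%, 44.2% and 10.7% were higher among members, and 32.7%, 33.6%, 60.2% and 19.7% among all genes. The shares of all genes called at this fold are not given here, so the counts themselves have no background. A minimum of 5 FPKM left 16 lower members in T-ALL, in place of 29. Of the T-ALL calls at this minimum, 59.0% were higher among members and 50.8% among all genes. Against the median of the 4 normal libraries, 34 members were higher in AML, in place of 57, and 42 lower in AUL, in place of 64. Higher calls then made up 41.5% and 38.2% of the member calls in AML and AUL, and 43.2% and 43.1% of the calls of all genes. With that reference Slc6a19 (0.0361) and Slc12a7 (1.51) had positive log2 ratios in T-ALL, and both were highest in normal T cells. The other 2-fold counts over all members stayed within 1.5 times, while some counts within role lists moved further. With median-ratio scaling, ion exchangers in AML went from 3 higher and 6 lower to 1 and 11. Amino acid carriers in AML went from 2 to 5 lower, and zinc carriers in B-ALL from 3 to 1 higher. A higher fold or minimum and a left-out pair leave fewer genes or samples by construction, and for the other changes the cause was not tested. The 46 members that never reached 5 FPKM have the lowest precision.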

Other observations

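Some members lie next to each other on the genome, and neighbours within 50000 bases did not always share a pattern. Slc6a13 and Slc6a12, 5342 bases apart on mm10 chromosome 6, were both highest in normal myeloid cells, with 21.3 and 15.1 FPKM, and both low in AML, with 0.374 and 0.0826 FPKM. On chromosome 17 Slc35b2 and Slc29a1 lie 17530 bases apart, and their log2 ratios were 0.24, 0.80, 1.92 and -0.25 and 1.90, 2.50, 2.32 and 1.26 in the B-ALL, T-ALL, AML and AUL libraries. Slc4a1 and Slc25a39 lie 36781 bases apart on chromosome 11, with log2 ratios of -0.06, -1.78, -0.80 and -1.41 and 1.36, 1.42, 1.99 and 0.16.

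Carriers outside the role lists, named after their values were seen, included Slc17a9, which loads ATP into vesicles, with 71.5, 42.4, 78.1 and 20.6 FPKM in the B-ALL, T-ALL, AML and AUL libraries, against 19.7, 76.4, 86.8 and 29.4 in their normal B, T, myeloid and lineage-negative counterparts. Slc50a1, a sugar carrier of intracellular membranes, was lower in B-ALL, T-ALL and AML and near 0 in AUL (log2 ratios -1.09, -0.45, -1.98 and -0.14). The vesicular amine carrier gene Slc18a2 was highest in normal lineage-negative cells, with a log2 ratio of -2.08 in AUL. Slc32a1, the vesicular GABA carrier of neurons, had 5.14 FPKM in AML and at most 1.04 FPKM elsewhere. The scaffold gene Slc9a3r1 had 70.9, 76.4, 53.99 and 100.5 FPKM in the B-ALL, T-ALL, AML and AUL libraries, against 72.1, 125, 144 and 83.3 in their normal B, T, myeloid and lineage-negative counterparts.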
